A study of Saccharomyces cerevisiae with 66 samples.

Results

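Depletion of Rat1 in meiotic yeast was examined in 6 of the 66 poly(A)-selected RNA libraries of the series, chosen by their titles: 3 libraries of the RAT1 degron strain given IAA (indole-3-acetic acid, an auxin) and 3 of the same strain given DMSO, the solvent control. The cells were diploid Saccharomyces cerevisiae held in early meiosis in SPO, a starvation medium with acetate that starts sporulation. The RAT1 genotype is labelled RAT1-3V5-IAA7:KanMX, and its last digit runs on down the sample list, as a copied spreadsheet cell does. The strains compared share a MATa/alpha background with ho::LYS2 and lys2, with ura3, and with leu2::hisG, trp1::hisG and his3:p550 (in the WT labels this number runs on in the same way), and the reference strain, titled WT_TIRligase, has the ligase and no tagged target. Per the labels, IAA at 500 µM and CuSO4 at 50 µM were added 3 h after transfer to SPO, and the titles give 4 h. This protocol is given unchanged for IAA and DMSO cultures alike, and whether copper went into the latter is not given. WT cultures given IAA and WT cultures given DMSO (3 libraries each) were read as the reference for the additions. The XRN1 and RRP6 degron strains (6 libraries each) were read as the nearest relatives in function.

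Rat1 is the nuclear exonuclease that digests RNA inward from a phosphorylated front end, and it works with a partner, Rai1. It trims the front ends of ribosomal and small nucleolar RNA precursors. It also degrades the RNA that RNA polymerase II is still making once the messenger has been cut at its poly(A) site, a step known to release the polymerase from the template. Xrn1 is its relative in the cytoplasm, and Rrp6 is a nuclear exonuclease that works from the other end of the RNA.

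The 6 RAT1 libraries held 18.6 to 24.9 M gene counts. No library was a copy of its replicate, since chi-square per degree of freedom was 75.2 to 259 for replicate pairs. Nothing in the labels says that the replicates were separate cultures, so p-values measure only the spread between libraries. That spread was estimated over all 66 libraries of the series, not over the RAT1 libraries alone. The marker genes of meiotic entry fitted the label: the summed level of the 8 genes was 14206 to 15844 CPM (counts per 1 M of scaled library size) with IAA and 16238 to 16480 CPM with DMSO, and 0 of them passed the limma test, also at an unadjusted p under 0.05. The summed level of the haploid markers with counts (7 of 8) was 69.7 to 94.8 CPM with IAA and 119 to 151 CPM with DMSO. Among them MFA1 and MFA2, the a-factor genes, were below 1 CPM in all 6 libraries, but STE6 averaged 34.8 CPM over the same libraries. MATALPHA2, chosen as the marker of the diploid mating type, was not found among the genes with counts. DMSO replicates 1 and 2 stood apart from replicate 3 in copper genes. CUP1-1, the copper-binding metallothionein, was at 29.1, 82.6 and 7.34 CPM in DMSO replicates 1 to 3, against 6.34 to 9.74 CPM in the 3 WT DMSO libraries. The copper transporter genes went the other way: CTR1 was at 140, 80.0 and 606 CPM and CTR3 at 475, 147 and 2517 CPM. The counts of changed genes below are therefore also given without these 2 libraries, in which case the lone DMSO library is assumed to vary like the other groups.

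The transcript of the targeted gene did not fall. RAT1 messenger was at 59.6, 60.6 and 83.8 CPM with DMSO and at 69.5, 73.4 and 111 CPM with IAA. The groups overlapped, and the log2 change was 0.30 ± 0.18 (SE, n = 3 per group; limma adjusted p = 0.271). A degron acts on the protein, so these values do not measure the depletion. In WT DMSO the same messenger was at 91.1, 106 and 119 CPM, all above the RAT1 DMSO libraries. That difference in the DMSO cultures was -0.64 on the log2 scale and was not called at an adjusted p under 0.05 over all genes.

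Of the exonuclease genes and their partners (RAT1, RAI1, RTT103, XRN1 and DXO1), 0 of 5 passed the limma test, and 1 had an unadjusted p under 0.05. RAI1, whose product binds and stabilises Rat1, was at 20.6, 25.6 and 23.8 CPM with DMSO and 24.8, 29.5 and 29.4 CPM with IAA (log2 change 0.26 ± 0.24). RTT103, whose product binds the polymerase tail together with Rat1, was at 95.0 to 128 CPM with DMSO and 98.8 to 124 CPM with IAA (log2 change 0.01 ± 0.12). DXO1, a relative of RAI1 that removes faulty caps, was at 13.2 to 17.0 and 13.5 to 15.7 CPM (log2 change 0.03 ± 0.17). XRN1 messenger was at 406, 392 and 426 CPM with DMSO and 425, 530 and 608 CPM with IAA, so only the lowest IAA library lay inside the DMSO range. Its log2 change of 0.34 ± 0.15 missed the threshold in limma (adjusted p = 0.112) and passed it in the fit with the replicate number as a block (adjusted p = 0.0177) and without IAA replicate 1 (adjusted p = 0.0345). PCF11, a cleavage factor subunit that binds the polymerase tail at gene ends, was at 50.5, 52.9 and 53.9 CPM with DMSO and 75.6, 54.2 and 77.9 CPM with IAA. All IAA values were above all DMSO values, by very little in replicate 2. The log2 change of PCF11 was 0.38 ± 0.14 (limma adjusted p = 0.0553; with the block 0.0239; without IAA replicate 2, 0.00744).

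Across the genome more messengers fell than rose. Of 5828 genes tested, 410 were higher with IAA (7.04%) and 755 were lower (13.0%) at a limma adjusted p under 0.05. With the replicate number as a block, 770 were higher and 1173 lower. In a fit of the RAT1 libraries alone, 266 were higher and 555 lower. Without DMSO replicates 1 and 2 the counts were 125 and 405. With 1 library left out, the count of rises was lowest without IAA replicate 3 (245) and without DMSO replicate 2 (253). Of the called genes, 109 rises and 190 falls were at least 2-fold. In 380 of the 410 rises (92.7%) all 3 IAA libraries lay above all 3 DMSO libraries, which held for 951 of all genes (16.3%). In 716 of the 755 falls (94.8%) the IAA libraries lay below, which held for 1126 of all genes (19.3%). The split depended on the scaling: with total counts alone, 239 genes were higher and 947 lower, and the median of all genes moved from -0.004 to -0.091 on the log2 scale. In bulk RNA, fewer cells of a kind and less RNA per cell cannot be told apart.

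WT, which has no tagged protein, differed between IAA and DMSO cultures in 199 genes (3.41%), of which 98 rose and 101 fell. With 1 WT library left out it was 85 to 149 genes, lowest without IAA replicate 2. Of the RAT1 rises, 74 were also WT rises, which is 18.0% of the RAT1 list and 75.5% of the WT list. Of the RAT1 falls, 40 were also WT falls, or 5.30% and 39.6%. The test of the difference between the 2 changes, called beyond WT from here on, called 60 genes higher (1.03%) and 341 lower (5.85%). With the block these counts were 189 and 605, and without RAT1 DMSO replicates 1 and 2 they were 32 and 230. Both calls together held for 52 rises and 333 falls. Of the 60 genes higher beyond WT, 10 were identifiers with no RefSeq entry, which is 3.57% of the 280 such identifiers tested. Most such identifiers were near the count floor, with a median of 0.408 CPM in the RAT1 libraries, against 71.6 CPM for coding genes. After asking for 10 CPM and for groups that do not overlap, 35 rises and 302 falls were left. The 14 largest of each are described next; they were chosen by these very values, so the values describe them and support nothing further.

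**Figure D1:**
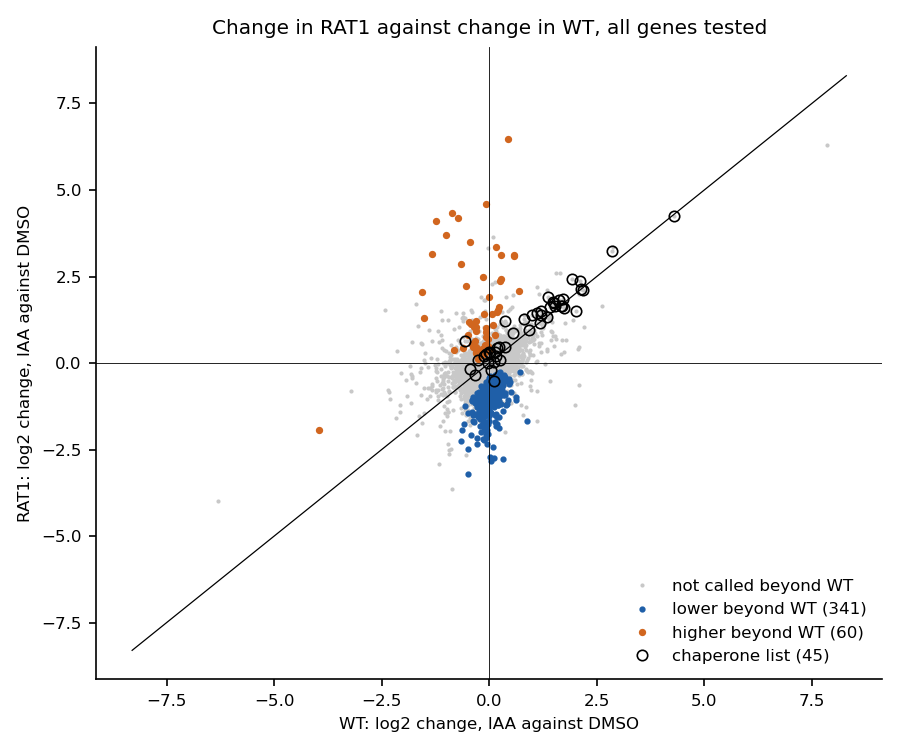
Log2 change with IAA against DMSO in WT (horizontal axis) and in the RAT1 strain (vertical axis) for all 5828 genes tested, 1 point per gene; the diagonal marks equal change, blue and orange points were called lower (341) and higher (60) beyond WT, and circles are the 45 chaperone genes. Most circles with a rise lie near the diagonal. Most blue points lie below 0 in RAT1 near no change in WT, a place partly set by the call beyond WT that defines them.

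Among the rises were genes of membranes and lipid transport. VPS13, which encodes a large lipid transfer protein needed to shape the membrane around spores, was at 324, 259 and 402 CPM with DMSO and at 1597, 1495 and 2152 CPM with IAA. Every IAA library was more than 3-fold above every DMSO library. The log2 change was 2.42 ± 0.15 (limma adjusted p = 3.11e-18), and the change beyond WT was 2.14 ± 0.19. SWH1, an oxysterol-binding protein that carries sterols between membranes, went from 298, 309 and 327 CPM to 819, 1143 and 784 CPM (log2 change 1.53). ATM1, the mitochondrial exporter used for iron-sulfur cluster assembly outside the organelle, rose by 1.62 on the log2 scale, from 21.5 to 26.8 CPM to 54.6 to 91.7 CPM. PDR12, a plasma membrane pump for weak organic acids, rose by 1.47, from 79.1 to 96.2 CPM to 211 to 282 CPM. ATG10, the enzyme that joins Atg12 to Atg5 in autophagy, was at 4.68, 4.32 and 4.40 CPM with DMSO and 28.1, 26.7 and 20.9 CPM with IAA, a log2 change of 2.49 ± 0.19 (limma adjusted p = 9.68e-15). In WT it was at 5.43 to 7.14 CPM with IAA and 6.79 to 7.38 CPM with DMSO.

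FAR1, the inhibitor of cyclin-dependent kinase that stops the cell cycle in response to pheromone, was at 7.11, 4.68 and 6.52 CPM with DMSO and at 63.2, 49.4 and 42.6 CPM with IAA. That is an 8.46-fold rise with no overlap (log2 change 3.08 ± 0.26; limma adjusted p = 2.01e-13), and 2.51 ± 0.43 beyond WT. FUS1, which acts at the site where mating cells fuse, went from 15.7, 10.6 and 13.3 CPM to 38.5, 31.3 and 35.2 CPM (log2 change 1.41 ± 0.24). IQG1, the scaffold of the actomyosin ring, rose from 71.6, 59.5 and 67.7 CPM to 168, 251 and 366 CPM (log2 change 1.91 ± 0.21), with IAA libraries that differed more among themselves than the DMSO libraries did. CIN2, which acts in the folding of tubulin, rose from 33.2, 59.6 and 30.8 CPM to 71.0, 120 and 83.6 CPM (log2 change 1.19 ± 0.26). The list of mating genes as a whole, given further on, moved both ways.

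Of the remaining rises, POF1, annotated as a nicotinamide nucleotide adenylyltransferase, was at 4.81, 4.68 and 3.06 CPM with DMSO and 34.6, 42.5 and 29.3 CPM with IAA (log2 change 3.11 ± 0.25; 2.54 ± 0.41 beyond WT). ETT1, a protein with a role in translation termination, went from 19.3, 26.5 and 24.0 CPM to 108, 127 and 127 CPM (log2 change 2.38 ± 0.28). STD1, a regulator of the Snf1 kinase in glucose signalling, went from 7.43, 8.50 and 7.46 CPM to 39.4, 27.6 and 34.3 CPM (log2 change 2.09 ± 0.28). All 3 had groups far apart, but STD1 was also at 20.4 and 20.2 CPM in 2 of the 3 WT IAA libraries, against 9.40 to 11.9 CPM in WT DMSO. Its change beyond WT was 1.40 ± 0.41 (limma adjusted p = 0.0221). That call was lost (adjusted p 0.0532 to 0.121) without WT IAA replicate 3, WT DMSO replicate 2, RAT1 IAA replicate 1, or RAT1 DMSO replicate 1 or 3. UIP5, a protein of the nuclear envelope, rose from 12.1, 21.6 and 14.5 CPM to 38.4, 35.6 and 34.6 CPM (log2 change 1.21 ± 0.25). YKR045C, a gene of unknown function, rose from 39.1, 32.5 and 29.6 CPM to 89.8, 70.9 and 58.9 CPM (log2 change 1.11 ± 0.17). For FUS1 the call beyond WT (1.34 ± 0.38) was lost in limma without RAT1 DMSO replicate 2 (adjusted p = 0.0562). Without RAT1 DMSO replicates 1 and 2 together, 11 of the 14 rises kept the call beyond WT, and FUS1, STD1 and PDR12 lost it (limma adjusted p = 0.104, 0.131 and 0.0686).

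**Figure D2:**
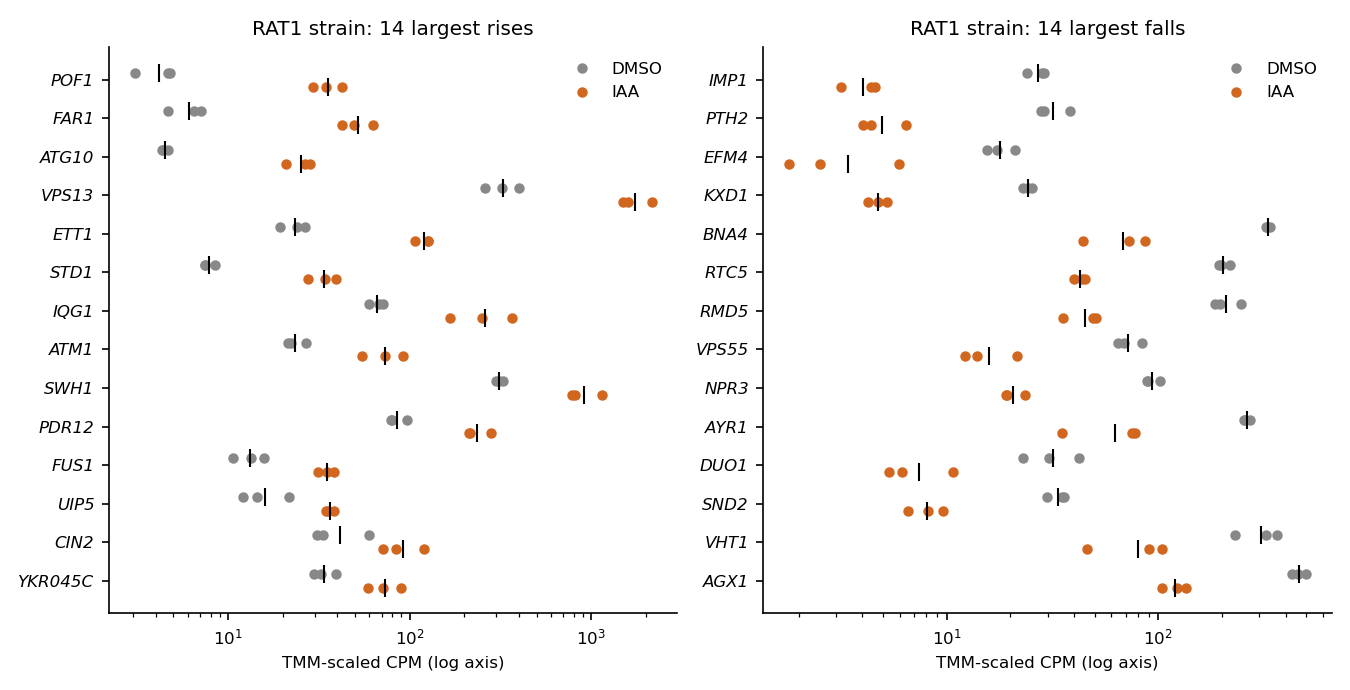
TMM-scaled CPM on a log axis for the 14 largest rises (left) and the 14 largest falls (right) in the RAT1 strain, 1 point per library (3 DMSO, grey; 3 IAA, orange), with a vertical mark at the mean. The IAA and DMSO points of each gene do not overlap, as the rule for choosing them requires (VPS13 324, 259 and 402 CPM against 1597, 1495 and 2152 CPM).

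Of the 14 rises, 12 stood behind another gene on the same strand, called a tandem upstream neighbour here, as did 24 of the 35 (68.6%). Of all coding genes tested, 2674 of 5507 (48.6%) had one. Neighbours were taken from the RefSeq gene order. VPS13 stood behind UBI4, the polyubiquitin gene, which was at 2167, 2246 and 2222 CPM with DMSO and 2165, 2998 and 2612 CPM with IAA (log2 change 0.21, not called). Next after VPS13 on the same strand came SDH2, a succinate dehydrogenase subunit, and then ATG10. SDH2 fell from 753, 1347 and 1095 CPM to 402, 349 and 399 CPM (log2 change -1.43), so the 2 genes that rose had a gene that fell between them. SDH2 also fell with IAA in XRN1 (-1.14) and RRP6 (-1.04), and its WT change was -1.03, not called. HSP82, which rose, was followed by CIN2 and then IQG1, which both rose. FAR1 stood behind SSY5, ATM1 behind YME2, and PDR12 behind SUR1. FUS1 stood behind RNQ1, a prion protein gene at 128 to 136 CPM with DMSO and 136 to 139 CPM with IAA. RNQ1 was therefore level in all 6 libraries while FUS1 rose. YKR045C stood behind PLN1, a lipid droplet protein (log2 change -0.45; limma adjusted p = 0.0571, and 0.00133 with the block), and converged with UIP5, which also rose.

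A rise behind a gene that fell was seen at POF1. Its upstream neighbour EMC1, a subunit of the complex that inserts proteins into the membrane of the endoplasmic reticulum (ER), went from 245, 241 and 256 CPM to 69.1, 96.1 and 87.0 CPM. That log2 change of -1.57 ± 0.11 (limma adjusted p = 1.6e-16) had no counterpart in WT, where EMC1 was at 210 to 233 CPM with DMSO and 240 to 270 CPM with IAA. The tagged locus itself lies in a run of genes on 1 strand: TMC1, ETT1, RSB1, RAT1, STD1 and DBP5, in that order. ETT1 and STD1 rose, TMC1 (a zinc finger protein; log2 change 0.47) and RSB1 were not called, and DBP5, the helicase that releases messengers at the nuclear pore, fell from 166, 126 and 151 CPM to 91.9, 55.1 and 73.4 CPM (log2 change -1.03). STD1 stands next after RAT1, whose allele carries the tag and KanMX in IAA and DMSO cultures alike. For STD1, a response to IAA that depends on this allele and a response to the depletion cannot be told apart within this strain. In the DMSO cultures STD1 was at 7.43 to 8.50 CPM in the RAT1 strain and 9.40 to 11.9 CPM in WT. Of the tandem upstream neighbours of all genes that rose and were higher beyond WT, 3 of 28 rose, 3 fell (10.7% each) and 22 were not called. Of all genes tested, 7.04% rose and 13.0% fell.

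The falls were more numerous. IMP1, the catalytic subunit of the protease that cuts presequences at the mitochondrial inner membrane, went from 28.2, 28.9 and 23.9 CPM to 4.57, 3.16 and 4.40 CPM. This was a 6.80-fold fall (log2 change -2.77 ± 0.23; limma adjusted p = 1.05e-13), and in WT the gene was at 21.7 to 24.0 CPM with DMSO and 26.1 to 31.2 CPM with IAA. BNA4, kynurenine 3-monooxygenase of NAD synthesis, fell from 321, 328 and 337 CPM to 73.0, 44.1 and 86.9 CPM (log2 change -2.34 ± 0.19). AYR1, the reductase that makes a precursor of phosphatidic acid, fell from 272, 258 and 255 CPM to 77.9, 35.2 and 75.0 CPM (log2 change -2.16 ± 0.28). In both, IAA replicate 2 was the lowest library. AGX1, the enzyme that makes glycine from glyoxylate, fell from 429, 456 and 500 CPM to 122, 104 and 135 CPM (log2 change -1.94 ± 0.21), with -0.63 in WT. VHT1, the biotin transporter, fell from 231, 363 and 323 CPM to 45.8, 104 and 90.9 CPM (log2 change -1.98 ± 0.38). For VHT1 the call beyond WT (-1.80 ± 0.52) was lost in limma (adjusted p 0.0528 to 0.11) without WT IAA replicate 3, WT DMSO replicate 1 or 2, RAT1 IAA replicate 1, or RAT1 DMSO replicate 2 or 3.

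The other falls encode proteins of varied roles. PTH2, which releases stalled peptides from transfer RNA (tRNA), fell 6.50-fold, from 38.3, 29.0 and 28.0 CPM to 6.41, 4.39 and 4.00 CPM (limma adjusted p = 1.69e-15). EFM4, a methyltransferase of translation elongation factor, fell from 15.6, 20.9 and 17.2 CPM to 2.51, 5.92 and 1.80 CPM (log2 change -2.49 ± 0.38). Both sets of libraries were well apart. KXD1, a subunit of the endosomal BLOC-1 complex, fell from 24.2, 25.3 and 22.8 CPM to 5.24, 4.74 and 4.23 CPM, one of the tightest changes (log2 change -2.34 ± 0.15). VPS55, which acts between endosome and vacuole, fell from 69.1, 83.5 and 64.2 CPM to 12.3, 21.5 and 14.0 CPM (log2 change -2.20 ± 0.24). SND2, a targeting factor for ER proteins, fell from 35.2, 35.7 and 29.6 CPM to 8.19, 9.57 and 6.54 CPM (log2 change -2.04 ± 0.18). NPR3, a subunit of the complex that restrains the TORC1 kinase on poor nitrogen, fell from 89.2, 88.8 and 102 CPM to 19.1, 23.5 and 19.3 CPM, while WT stayed between 84.5 and 103 CPM in all 6 libraries. The NPR3 log2 change was -2.17 ± 0.13 (limma adjusted p = 7.79e-18). RMD5, of the ubiquitin ligase that degrades gluconeogenic enzymes, fell from 196, 186 and 245 CPM to 48.9, 35.4 and 50.6 CPM (log2 change -2.23 ± 0.16). DUO1, a kinetochore subunit, fell from 30.3, 42.3 and 23.0 CPM to 6.13, 10.8 and 5.36 CPM (log2 change -2.09 ± 0.31). RTC5 fell from 197, 194 and 217 CPM to 43.4, 40.0 and 45.0 CPM (log2 change -2.25 ± 0.13). RTC5 was the 1 gene of the 28 that WT also called, with 194 to 198 CPM with DMSO and 111 to 136 CPM with IAA (log2 change -0.67). Without RAT1 DMSO replicates 1 and 2, 12 of the 14 falls kept the call beyond WT, and DUO1 and VHT1 lost it (limma adjusted p = 0.143 and 0.121). All 28 genes kept their call in the RAT1 strain under each alternative run.

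Of the 14 falls, 8 (57.1%) had a gene on the same strand ahead of them, near the 48.6% of all coding genes, and of the 302, 232 did (76.8%). BNA4 stood behind ATP1, the ATP synthase alpha subunit, at 2330 to 3214 CPM with DMSO and 2277 to 2460 CPM with IAA (log2 change -0.23, not called). AYR1 stood behind KGD1, of the citric acid cycle, at 1223 to 1601 CPM and 1113 to 1470 CPM (log2 change -0.13, not called). VPS55 stood behind SSC1, the mitochondrial Hsp70 chaperone, which rose from 320 to 348 CPM to 603 to 1190 CPM (log2 change 1.32; 1.35 in WT). RMD5 stood behind CTA1, peroxisomal catalase, at 1136 to 2706 CPM and 795 to 1185 CPM (log2 change -0.75, not called). Of these 4 neighbours 1 rose and 3 were not called. They are only a part of the 8, since the neighbours of KXD1, RTC5, VHT1 and AGX1 are not described here. Over all falls shared with the test beyond WT, 29 of 240 tandem upstream neighbours rose (12.1%), 26 fell (10.8%) and 185 were not called. Of all genes tested, 7.04% rose and 13.0% fell. Downstream, 10 of the 14 and 216 of the 302 (71.5%) faced a gene on the other strand, a convergent neighbour, against 53.1% of all coding genes.

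Neighbour arrangement was then counted over all coding genes, as a description with no test. Genes with a tandem upstream and a convergent downstream neighbour (1367) were lower beyond WT in 12.2% and higher in 1.32%. With tandem neighbours on both sides (1306), 6.74% were lower and 1.23% higher. With a divergent neighbour upstream, one read away from the gene on the other strand, and a convergent one downstream (1556), 5.01% were lower and 0.386% higher. With divergent upstream and tandem downstream (1275), 0.549% were lower and 0.784% higher. Lower calls were thus most frequent where the gene ahead pointed into the gene and the gene behind faced it, and least frequent where neither did. Strand was kept by the library kit, but whether the counting used it is not given in the sources used here. Reads of convergent or overlapping transcripts and reads that run on from a gene ahead can therefore not be told apart from those of the gene named.

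**Figure D3:**
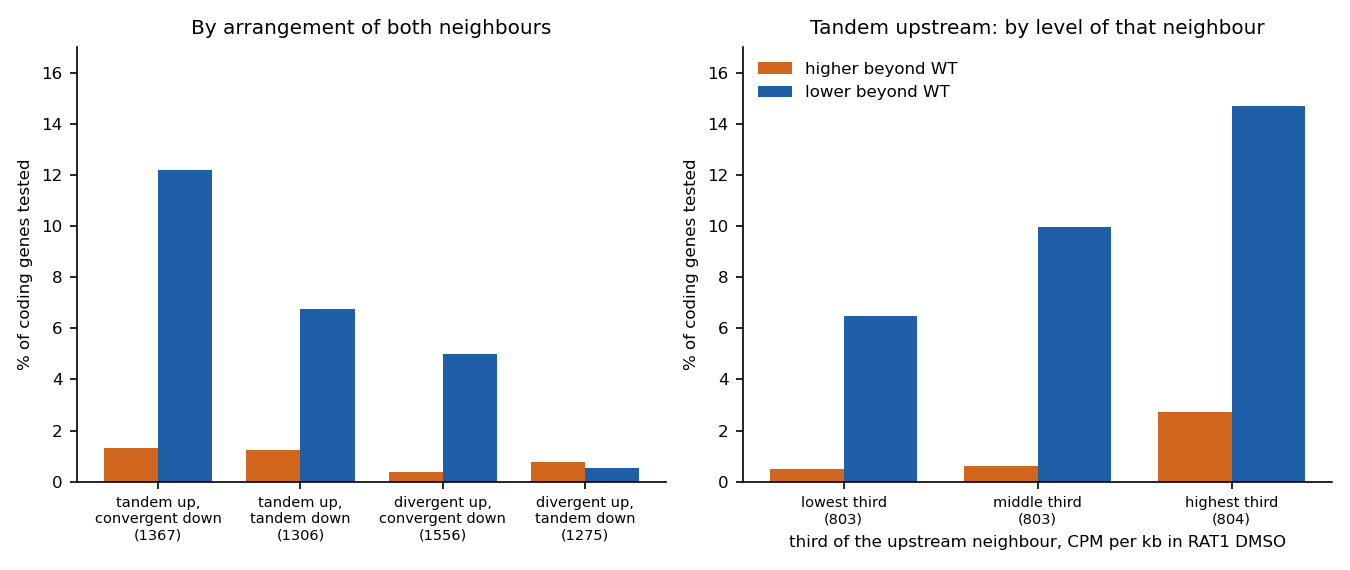
Percent of coding genes called higher and lower in the RAT1 strain beyond WT, by arrangement of the upstream and downstream neighbour and by the level of the tandem upstream neighbour per kilobase in 3 equal groups. Lower calls run from 0.549% with divergent upstream and tandem downstream neighbours to 12.2% with tandem upstream and convergent downstream neighbours.

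The level of the gene ahead moved with the calls. Genes with a tandem upstream neighbour were split into 3 groups of 803, 803 and 804 by that neighbour's CPM per kilobase of coding length. From lowest to highest level, 0.498, 0.623 and 2.74% were higher beyond WT, and 6.48, 9.96 and 14.7% were lower. By the neighbour's level relative to the gene's own, higher calls were 0.125, 0.374 and 3.36%, and lower calls 4.98, 11.5 and 14.7%. These last groups also differed in the genes' own level, with medians of 160, 68.5 and 35.6 CPM. In the grouping by the neighbour's level alone the medians were 74.3, 72.0 and 76.0 CPM. The own level enters both the relative grouping and the change tested, so grouping and calls are not independent. Its part in these shares was not tested. Shares of both directions were largest behind the strongest neighbours. Calls also differed by coding length. From the shortest to the longest group, 3.15, 7.07 and 11.0% rose and 17.8, 15.5 and 7.11% fell in the RAT1 strain. In WT, 0.924, 1.85 and 2.35% rose and 2.94, 1.74 and 0.711% fell, in the same order. Beyond WT, 0.653, 0.761 and 1.31% were higher and 7.29, 7.61 and 3.61% lower. Of 162 genes whose coding sequence is in at least 2 parts, ribosomal protein genes left out, 17.3% fell in RAT1 and 4.94% were lower beyond WT, against 13.6% and 6.30% of genes in 1 part. These classes share genes, and their parts in the result were not tested.

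**Figure D4:**
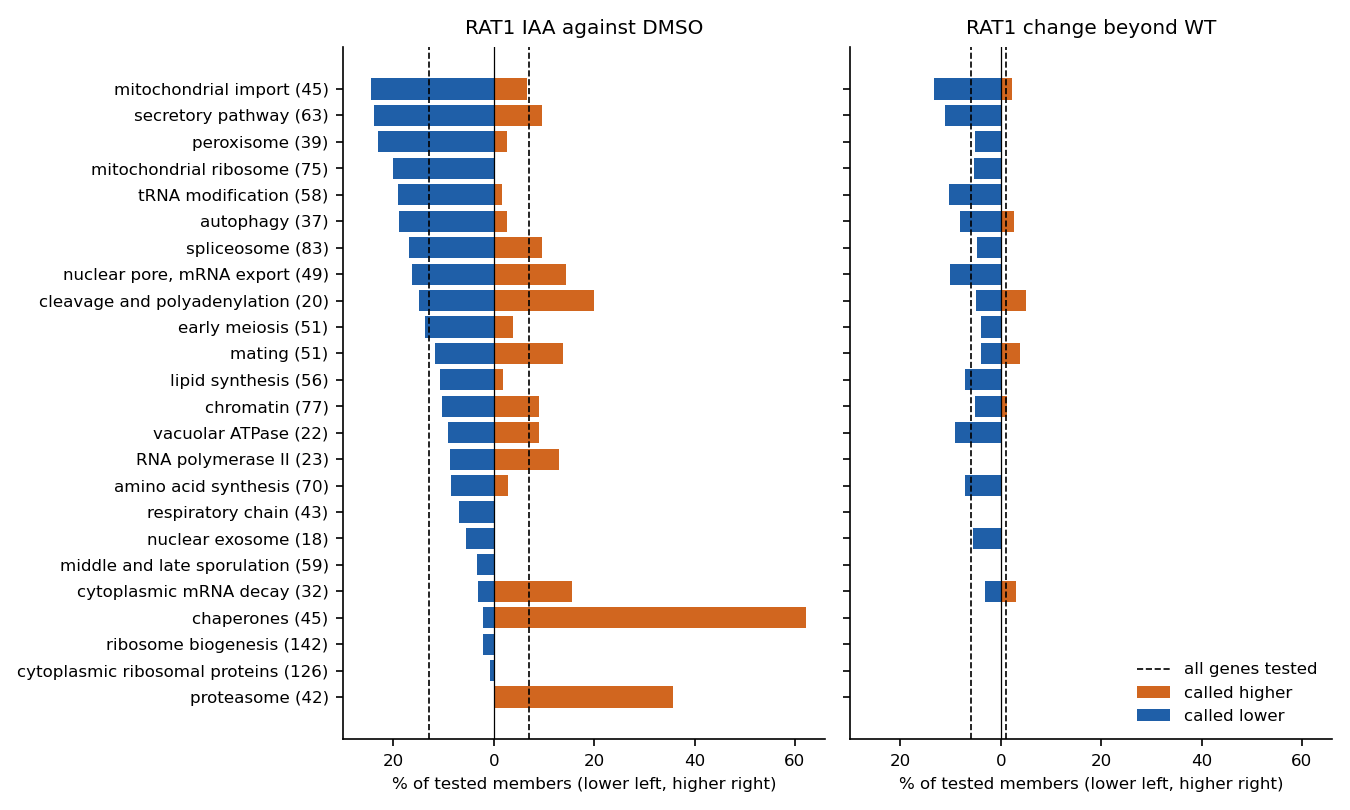
Percent of the tested members (number in brackets) of each functional list called lower (blue, to the left) and higher (orange, to the right) with IAA in the RAT1 strain (left panel) and beyond WT (right panel); dashed lines give the shares of all genes tested. In RAT1, chaperones (62.2%) and proteasome genes (35.7%) lead the higher side of the lists drawn, and mitochondrial import (24.4%), secretion (23.8%) and peroxisomes (23.1%) their lower side, against 7.04% and 13.0% of all genes. Beyond WT, 0 chaperone and 0 proteasome genes were called by limma. Lower calls beyond WT were 13.3% for mitochondrial import, 11.1% for secretion and 5.13% for peroxisomes, against 5.85% of all genes.

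Functional lists were read against these backgrounds of 7.04% higher and 13.0% lower, with no test of a list. Among genes of RNA 3' end formation (cleavage and polyadenylation factors, 20 tested), 4 rose and 3 fell. Beyond WT 1 of them was higher and 1 lower (5.00% each, against 1.03% and 5.85% of all genes). Neither of these was REF2 or PTI1. REF2, a cleavage complex subunit used at small nucleolar RNA ends, rose from 51.1, 62.7 and 57.5 CPM to 84.5, 91.0 and 83.5 CPM (log2 change 0.60). PTI1 fell from 45.6, 46.9 and 44.0 CPM to 30.8, 27.1 and 26.0 CPM (log2 change -0.71), and SYC1 fell by 0.87 on the log2 scale. Both were already lower in RAT1 DMSO than in WT DMSO, with log2 differences of -0.56 for PTI1 and -0.66 for SYC1. Of 18 exosome genes 1 fell: MTR3, a subunit of the core ring, from 80.1, 74.8 and 72.9 CPM to 34.2, 21.1 and 23.9 CPM (log2 change -1.57; -1.30 beyond WT). It also fell in XRN1 (log2 change -0.51). Of 32 genes of cytoplasmic messenger decay 5 rose and 1 fell. NAM7, the Upf1 helicase of nonsense-mediated decay, rose from 169, 178 and 197 CPM to 300, 275 and 335 CPM (log2 change 0.75). SKI8, of the complex that feeds RNA to the cytoplasmic exosome, fell from 166, 157 and 150 CPM to 68.6, 69.2 and 67.5 CPM (log2 change -1.20). Ribosome-linked lists held few calls: in limma 0 of 142 ribosome assembly genes rose (1 at an unadjusted p under 0.05) and 3 fell. Of 126 ribosomal protein genes 1 fell, with paralog pairs that share reads. The median log2 change of the ribosomal protein genes was 0.169 in RAT1 and 0.485 in WT. Their median beyond WT was -0.309, against 0.028 over all genes, with 0 called by limma (0 higher and 1 lower at an unadjusted p under 0.05).

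Genes of tRNA processing fell in 11 of 58 cases (19.0%) and rose in 1, and 6 were lower beyond WT (10.3% against 5.85% of all genes). SEN54, a subunit of the tRNA splicing endonuclease, went from 45.7, 40.6 and 42.8 CPM to 16.4, 15.4 and 16.2 CPM (log2 change -1.43 ± 0.14). TPT1, which removes the phosphate left at the tRNA splice junction, went from 64.5, 75.6 and 60.8 CPM to 25.6, 24.8 and 24.2 CPM (log2 change -1.42 ± 0.15). Replicates agreed closely in both, and WT was not called. MOD5, which modifies the base beside the anticodon, fell by 1.45 on the log2 scale (-1.48 beyond WT), to 5.08 to 7.19 CPM, and was already lower in RAT1 DMSO than in WT DMSO (log2 difference -0.81). NCS2, which adds sulfur to tRNA, fell from 42.4, 35.2 and 43.9 CPM to 13.3, 13.4 and 13.5 CPM (log2 change -1.59). It was not called beyond WT in limma (adjusted p = 0.0661) and was with the block (adjusted p = 0.0015).

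Splicing and messenger export genes moved both ways. Of 83 splicing genes 8 rose and 14 fell (16.9%), among them SNU23 of the tri-snRNP, from 16.8, 13.9 and 13.5 CPM to 6.30, 7.02 and 5.75 CPM (log2 change -1.19). Beyond WT 4 splicing genes were lower (4.82%, against 5.85% of all genes) and 0 were called higher by limma. Of 49 export and nuclear pore genes 7 rose and 8 fell, with 5 lower beyond WT (10.2%). TEX1, of the THO/TREX complex that packs messengers for export, fell from 50.1, 49.3 and 48.8 CPM to 21.5, 26.0 and 23.0 CPM (log2 change -1.07 ± 0.14). The pore genes fell too, SEH1 from 87.1, 91.5 and 91.9 CPM to 51.6, 38.6 and 48.3 CPM and NUP53 from 47.7, 55.5 and 55.3 CPM to 25.9, 27.9 and 25.3 CPM. In WT the log2 changes of TEX1, SEH1 and NUP53 were 0.05, 0.01 and -0.07, and none was called. Chromatin genes were near the background, with 7 rises and 8 falls among 77. Of the COMPASS complex, which methylates histone H3, SWD1 fell by 1.41 and SDC1 by 1.23 on the log2 scale. SIR4, the silencing protein, rose from 113, 105 and 124 CPM to 172, 293 and 243 CPM (log2 change 1.01). SIR4 converges with PCF11. SRB4 of the Mediator complex and IES2 of the INO80 remodeller were lower as well, with log2 changes of -0.99 and -1.08; they were chosen after their values were seen.

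Mitochondrial lists lay on the falling side. Of 75 genes of the mitochondrial ribosome 15 fell (20.0%) and 0 rose in limma, also at an unadjusted p under 0.05, and 4 were lower beyond WT (5.33%), close to the background of 5.85%. MRP2 fell from 14.2, 18.7 and 12.6 CPM to 6.46, 7.99 and 5.75 CPM (log2 change -1.15), and MRPS28 from 38.8, 40.9 and 34.4 CPM to 26.4, 19.4 and 19.0 CPM (log2 change -0.83). Both encode small subunit proteins. Of 45 genes of mitochondrial import and shape 11 fell (24.4%) and 3 rose, with 6 lower beyond WT (13.3%) and 1 higher. MDM12, which tethers mitochondria to the ER, fell from 35.6, 27.9 and 31.0 CPM to 18.3, 12.0 and 12.9 CPM (log2 change -1.16 ± 0.15). Respiratory chain genes, by contrast, fell in 3 of 43 cases in the RAT1 strain and in 12 in WT, and 0 genes of that list were called beyond WT in limma (3 higher and 0 lower at an unadjusted p under 0.05).

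Of 63 genes of secretion and ER targeting, 15 fell (23.8%) and 6 rose, and 7 were lower beyond WT (11.1%). SEC39, of the tether that receives vesicles at the ER, fell from 119, 88.5 and 110 CPM to 61.1, 45.2 and 69.0 CPM (log2 change -0.87 ± 0.14). BET2, of the enzyme that adds the lipid anchor of Rab proteins, fell from 77.2, 61.0 and 70.0 CPM to 47.1, 28.8 and 40.0 CPM (log2 change -0.88 ± 0.14). In both genes the groups did not overlap, and IAA replicate 2 was the lowest library. Lipid genes fell in 6 of 56 cases (10.7%), and 4 were lower beyond WT (7.14%), both near the shares over all genes (13.0% and 5.85%). ERG4, the last enzyme of ergosterol synthesis, fell from 173, 190 and 175 CPM to 53.7, 63.3 and 41.4 CPM (log2 change -1.77 ± 0.15). In autophagy 7 of 37 genes fell (18.9%), among them ATG22, a vacuolar amino acid exporter (log2 change -1.59 ± 0.10), and ATG34, a receptor for cargo under starvation (log2 change -1.47 ± 0.16), against the single rise of ATG10. Peroxisome genes fell in 9 of 39 cases (23.1%), but only 2 were lower beyond WT (5.13%), near the 5.85% of all genes. PEX22, the membrane anchor of a peroxisomal ubiquitin enzyme, fell from 22.0, 10.6 and 14.9 CPM to 4.51, 4.04 and 4.23 CPM (log2 change -1.83).

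Amino acid genes fell in 6 of 70 cases (8.57%), below the background, with 5 lower beyond WT (7.14% against 5.85% of all genes). Enzymes of proline synthesis were among them: PRO3 fell from 418, 376 and 383 CPM to 159, 152 and 158 CPM (log2 change -1.32 ± 0.15), and PRO2 from 85.9, 84.0 and 80.0 CPM to 41.6, 50.2 and 40.6 CPM (log2 change -0.92 ± 0.14). PHA2 of phenylalanine synthesis fell by 0.95 on the log2 scale. PRO3 also fell in XRN1 (-0.70). PRO3 stands behind SRB4 on the same strand, and both fell. Of 22 vacuolar ATPase genes 2 rose and 2 fell, among the latter VMA16 (log2 change -0.77 ± 0.10).

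The meiotic programme was described through its regulators. IME1, the master regulator of entry, was at 3855, 4198 and 3754 CPM with DMSO and 3979, 4135 and 4301 CPM with IAA, overlapping (log2 change 0.07 ± 0.16). IME2, its kinase target, was at 4028, 3290 and 3815 CPM and at 3532, 2742 and 3648 CPM (log2 change -0.17 ± 0.33), overlapping as well. NDT80, the regulator of the meiotic divisions, was at 594, 96.9 and 362 CPM with DMSO and 346, 50.8 and 279 CPM with IAA. It was lower with IAA within each replicate number but differed more between the numbers than between treatments, and WT DMSO was at 92.0 to 139 CPM. Its log2 change of -0.67 ± 0.74 was not called (limma adjusted p = 0.605) and was with the block (-0.71, adjusted p = 0.0119). The summed level of the 6 genes of the Ndt80 step was 508 to 2047 CPM with IAA and 559 to 3490 CPM with DMSO in RAT1, and 168 to 575 CPM in WT DMSO. Of 51 early meiotic genes 2 rose and 7 fell (13.7%), and of 59 sporulation genes 2 fell. HOP2, which acts in homologue pairing, fell from 530, 623 and 545 CPM to 261, 331 and 304 CPM (log2 change -0.93), a call that was lost without RAT1 DMSO replicates 1 and 2 (limma adjusted p = 0.13). HOP2 was not called beyond WT. Of the early meiotic genes 2 were lower beyond WT (3.92%, against 5.85% of all genes), and the median log2 change of that list was -0.226 in RAT1 and -0.322 in WT. CRR1, a spore wall enzyme, fell in RAT1 (log2 change -1.25) and in WT (-1.05).

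Mating genes moved both ways, with 7 rises (13.7%) and 6 falls (11.8%) among 51 and with 2 of each beyond WT. Beside the rises of FAR1 and FUS1, STE6, the exporter of the a-factor pheromone, fell from 46.1, 45.2 and 56.0 CPM to 15.9, 23.1 and 22.5 CPM (log2 change -1.27 ± 0.21; -1.23 ± 0.29 beyond WT). GPA1, the G protein of the pheromone receptor, fell from 26.7, 29.2 and 24.6 CPM to 13.8, 13.3 and 13.4 CPM (log2 change -0.99; without RAT1 DMSO replicates 1 and 2 -0.87, limma adjusted p = 0.0557). GPA1 was not called beyond WT. STE6 and GPA1 were the haploid markers called in RAT1, out of 6 tested, and the summed level of the haploid markers was lower with IAA in RAT1, as given above. The part of that lower level in the mating list was not tested.

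The largest group of rises was shared with WT. Of 45 chaperone genes 28 rose in RAT1 (62.2%) and 24 in WT, with median log2 changes of 1.27 and 0.99 and 0 genes called beyond WT by limma (1 higher and 1 lower at an unadjusted p under 0.05). HSP82, an Hsp90 gene with a near-identical copy that can share reads, went from 2258, 1352 and 1939 CPM to 4399, 7602 and 6779 CPM in RAT1 (log2 change 1.75), and from 1380 to 1598 CPM to 3776 to 4607 CPM in WT. SSA3, a stress Hsp70, had a log2 change of 3.24 in RAT1 and 2.85 in WT, and CPR6, an Hsp90 partner, 2.38 and 2.12. RPN4, the regulator of proteasome genes, rose by 0.96 in RAT1 and 0.84 in WT on the log2 scale. Of 42 proteasome genes 15 rose in RAT1 (35.7%) and 1 in WT. The limma test of the difference called 0 of these 42 (0 higher and 1 lower at an unadjusted p under 0.05), so the unequal counts do not show that the changes differ.

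Copper genes responded in both strains. CUP1-1, which has near-identical copies, rose to 1519, 2953 and 1862 CPM with IAA in RAT1 and to 1668 to 1831 CPM in WT. The log2 changes were 6.29 and 7.85, and the difference was -1.56 ± 1.0 (limma adjusted p = 0.537). Without RAT1 DMSO replicates 1 and 2, whose CUP1-1 level was already raised, the difference was 0.24. CRS5, the other metallothionein, rose from 3.18 to 7.88 CPM to 50.8 to 60.5 CPM (log2 change 3.35; 2.87 in WT). CTR1 fell by 1.92 on the log2 scale in RAT1 and by 3.95 in WT. Its IAA libraries were alike in both strains, at 38.1 to 63.5 and 36.6 to 50.5 CPM, and the strains differed in the DMSO libraries, at 140, 80.0 and 606 CPM against 605 to 663 CPM. CTR1 was therefore called higher beyond WT (2.02 ± 0.63; limma adjusted p = 0.0372), and this was 0.33 without RAT1 DMSO replicates 1 and 2. The call was lost in 9 of 12 fits that left out 1 library (limma adjusted p 0.0649 to 0.217), held only without WT IAA replicate 2, RAT1 IAA replicate 2 or RAT1 DMSO replicate 3, and was lost in a fit of the RAT1 and WT libraries alone (adjusted p = 0.238). CTR3 went from 475, 147 and 2517 CPM to 50.8, 19.6 and 44.7 CPM (log2 change -3.99; -6.32 in WT). Its difference of 2.32 was not called in limma (adjusted p = 0.135), but was with the block (adjusted p = 0.044) and without RAT1 DMSO replicate 3 (adjusted p = 0.00347).

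The changes of the RAT1 strain were then set against those of its nearest relatives. In the test of the difference, 164 genes were higher (2.81%) and 564 lower (9.68%) in RAT1 beyond XRN1, and 44 were higher (0.755%) and 355 lower (6.09%) beyond RRP6. The higher counts rested on few libraries: beyond XRN1 they were 95 without XRN1 DMSO replicate 2 and 109 without XRN1 IAA replicate 1, and beyond RRP6 24 without RRP6 DMSO replicate 3 and 28 without RRP6 IAA replicate 1. These comparisons share the RAT1 libraries with the rule for the 28 genes. In its own IAA against DMSO comparison, the XRN1 strain called 1 of the 14 rises in the same direction, POF1 (log2 change 1.17), and 1 of the 14 falls, RTC5 (-0.86); IMP1 was called in the opposite direction (0.66). The RRP6 strain called VPS13 among the rises (0.43) and RTC5 (-0.53) and AGX1 (-1.07) among the falls. The shares of all genes called in the XRN1 and RRP6 strains are not given here, so these counts cannot be read as few or many. FAR1 changed by 0.56 in XRN1 and 0.31 in RRP6 on the log2 scale, ATG10 by -0.06 and 0.07, and NPR3 by -0.12 and -0.05, none of them called.

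**Figure D5:**
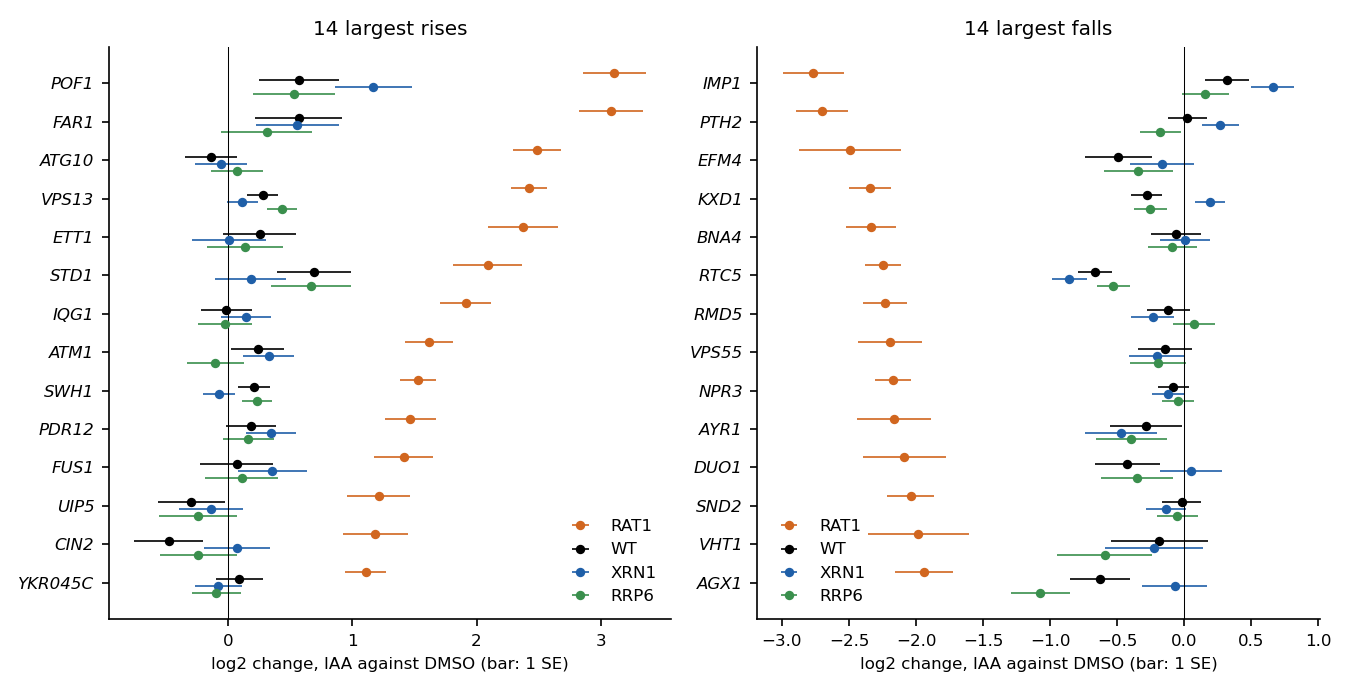
Log2 change with IAA against DMSO, with standard error, of the 28 leading genes in the RAT1, WT, XRN1 and RRP6 strains, 3 libraries per group. RAT1 values lie between 1.11 and 3.11 for the rises and between -1.94 and -2.77 for the falls, and most values of the other strains lie near 0. WT values apart from the RAT1 values were required by the rule that chose these genes.

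In the DMSO cultures the RAT1 strain differed from WT in 44 genes (0.755%), of which 10 were higher and 34 lower. This count rested on single libraries: it was 13, 83 and 26 without RAT1 DMSO replicate 1, 2 or 3, and 20, 18 and 24 without WT DMSO replicate 1, 2 or 3. Of the 35 rises and 302 falls, 1 and 6 were among genes that differed in DMSO. MOD5 and SDC1 were among those falls, each lower in RAT1 DMSO than in WT DMSO and lower again with IAA.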

How the data were processed

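The authors deposited 1 table of whole-number read counts per gene and library, not normalized in its 6171 gene lines. Lines with principal component scores precede them in the same columns, which as a whole are therefore in another unit than counts (recorded as other), and limma was used in place of the count tools planned first. STAR 2.7.10a, RSEM 1.3.1 and DESeq2 1.48.1 are named in the submitters' processing notes, with no role or order, and the genome build and annotation are not given in the sources used here. No coordinates or sequences are printed for that reason, and distances between genes, planned as a class, were not used. Names, neighbours, coding lengths and coding parts came from the R64 RefSeq table, which matched 5626 of 6171 identifiers (91.2%). A further 6 columns belong to no sample here and stayed unused.

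Genes reaching 0.484 CPM (10 counts at the median library size) in at least 3 libraries, with at least 15 counts in total, were kept (5828; 343 removed). TMM scaling trimmed 0.3 of log ratios and 0.05 of mean levels. Log2 CPM with a pseudocount of 0.5 counts and voom weights were fitted with limma 3.58.1 in R 4.3.3, with a mean for each group and all 66 libraries in the fit. P-values are two-sided and adjusted by Benjamini-Hochberg over all genes tested, per comparison; a gene was called at an adjusted p under 0.05. Errors are standard errors (SE) of log2 changes. The fit was tested on simulated data. Python 3.11.15 drew the figures.

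RAT1 libraries of the same replicate number deviated together: residuals of IAA and DMSO libraries correlated across genes with r = 0.361, 0.584 and 0.274, so blocked values stand beside results they change. In WT the values were 0.311, 0.527 and -0.159.

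Leading genes were the 14 largest rises and 14 largest falls among genes called in RAT1 and beyond WT, with a mean of at least 10 CPM and no overlap of IAA and DMSO libraries. From each functional list up to 4 members with the largest called change were eligible; those printed are ones whose RAT1 call held when any single library was left out. Members, lists and rules were chosen with earlier results of these data known. The alternatives were other scalings, other filters, no voom weights, a pseudocount of 2, only the groups compared, the replicate block and leaving out each library; leaving out RAT1 DMSO replicates 1 and 2 was added after seeing the data.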

Additional observations from a re-analysis of the deposited data

Results flagged for a closer look

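The RAT1 strain's response differed from that of the reference strains by tests of the difference itself, in limma with adjustment over all genes. Beyond WT, 401 genes differed. Beyond XRN1 the count was 728, and beyond RRP6 it was 399. Among single genes outside the choice of leading genes, CTR1, the copper transporter, had a RAT1 change 2.02 above that of WT on the log2 scale. This difference lay in RAT1 DMSO replicates 1 and 2, where CTR1 was at 140 and 80.0 CPM against 606 CPM in replicate 3, and it was 0.33 without them. Its call was lost in 9 of 12 fits that left out 1 library (limma adjusted p 0.0649 to 0.217) and with only the groups compared (adjusted p = 0.238). Groups of 3 libraries were not tested for single outlying libraries.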

How the results depend on the processing

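With the replicate number as a block, 1943 genes were called in RAT1 IAA against DMSO, 794 beyond WT, 1527 beyond XRN1, 803 beyond RRP6, 82 in RAT1 DMSO against WT DMSO and 798 in WT. In WT, residuals of the same number correlated in replicates 1 and 2 (r = 0.311 and 0.527) but not in replicate 3 (r = -0.159). Without RAT1 DMSO replicates 1 and 2, a choice made after seeing the data, the first 5 counts were 530, 262, 390, 242 and 2. Leaving out 1 library at a time gave 865 to 1029, 326 to 394, 546 to 812, 312 to 399 and 13 to 83 genes. For WT it gave 85 to 149, with 116 and 85 without IAA replicates 1 and 2 and 98, 107 and 119 without DMSO replicates 1, 2 and 3. RAT1 DMSO against WT DMSO had 88 calls with total-count scaling and 4 when only those groups were fitted. Total-count scaling moved the median of all genes by over 0.1 in 2 comparisons, beyond XRN1 (-0.005 to -0.151) and beyond RRP6 (0.010 to -0.099). No called gene named in the text changed sign under any alternative run. Of 76 named genes called in RAT1, 73 kept the call throughout, and of 57 called beyond WT, 47 did. The RAT1 share was partly set by the choice, since list members were printed only if that call held with any single library left out. Neither share carries over to genes not named.

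Some uncalled changes turned sign. With total-count scaling the log2 changes were -0.0745 for RTT103, -0.0607 for DXO1, -0.0114 for IME1 and -0.0277 for RNQ1. Leave-one-out values ran from -0.0933 to 0.1243 for RTT103, from -0.0398 to 0.1438 for DXO1, and from -1.4307 (without DMSO replicate 2) to 0.1760 (without IAA replicate 2) for NDT80. For the RAT1 transcript beyond WT they ran from -0.0539 to 0.3170. Without RAT1 DMSO replicates 1 and 2 the RAT1 transcript changed by -0.0179, and by -0.1611 beyond WT, and CUP1-1 by 0.2403 beyond WT. The cause was not tested.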
